A study of Gallus gallus with 12 samples.

Results

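The response of brain tissue to heat was compared between hypothalamus-labelled tissue and whole brain of chicken embryos, gene by gene, as the difference between both responses. A single edgeR quasi-likelihood fit took all 12 libraries of the series in 4 groups, and its contrast was the log2 change with heat in the hypothalamus-labelled libraries minus the log2 change with heat in whole brain. No gene was selected for the comparison: of 30742 genes in the count table, 16201 passed the filter on low counts and were tested. A positive difference therefore stands for a heat response that was more positive in the hypothalamus-labelled libraries, and a negative one for a response that was more positive in whole brain.

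All embryos were White leghorn chickens sampled on embryonic day 18, and each combination of tissue and treatment held 3 libraries. Control eggs (CT) were kept at 37.8 °C throughout incubation, and those of the ETM groups (embryonic thermal manipulation) were moved to 39.5 °C from day 13 to day 18. The design text gives the relative humidity as 65% and the growth protocol as 60%, and every library has batch label 1. Neither the number of embryos behind a library nor the way the tissue was dissected is stated, so p-values measure the spread between libraries.

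A temperature above the optimum unfolds proteins, and cells answer with the heat shock response, in which heat shock factors switch on chaperones of the HSP70, HSP90, HSP40 and small heat shock protein families. The hypothalamus holds the neurons that sense and set body temperature, together with neuroendocrine cells that release peptides such as arginine vasotocin, the avian counterpart of vasopressin. Whole brain contains the rest of the forebrain, the cerebellum and the brainstem in addition. Markers of vessels and meninges were counted in both tissues.

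Libraries held between 13309467 and 18317019 counted reads. Summed levels of 13 pallium markers were 122 to 165 CPM (read counts scaled to library size) in the hypothalamus-labelled libraries and 1221 to 1621 CPM in whole brain. NKX2-1, a defining transcription factor of the ventral hypothalamus, was at 0 in 4 of the 6 hypothalamus-labelled libraries and at most 1.25 CPM in the others, against 4.86 to 6.53 CPM in whole brain, so the label was not borne out by this marker. NKX2-2, another hypothalamic transcription factor, was higher in the hypothalamus-labelled libraries, whereas the vasotocin gene AVP was lower there than in whole brain. NKX2-4, a further factor of this list, was not detected in the hypothalamus-labelled controls. The values of these genes are given below. Single markers went both ways, and the level of NKX2-2 alone cannot settle the label. Summed hypothalamic transcription factors were at 589 to 672 CPM in these libraries and 574 to 673 CPM in whole brain. Midbrain and hindbrain transcription factors summed to 346 to 557 CPM against 211 to 279 CPM in whole brain. Monoamine genes summed to 738 to 2066 CPM against 571 to 681 CPM in whole brain. Myelin and oligodendrocyte markers summed to 12280 to 31500 CPM against 4036 to 6422 CPM in whole brain. Reads from the female-specific W chromosome made up 0.113 to 0.147% of counts in 1 control and 1 heat-exposed hypothalamus-labelled library and 1 heat-exposed whole-brain library, and at most 0.0174% in the other libraries. For heat-exposed hypothalamus-labelled library 1 the deposited counts and FPKM values held different reads. Values were equal for 32.84% of all 30742 genes of the count table, in which genes without reads in both count as equal. Because the tissue is a mixture, fewer cells of a type and less RNA per cell cannot be told apart in any result given here.

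The response to heat differed between the tissues for 3917 genes, which is 24.2% of those tested, at an edgeR adjusted p below 0.05. The difference was positive for 1926 genes (11.9%) and negative for 1991 (12.3%). Most of it lay in whole brain: 3343 of the 3917 genes (85.3%) passed the heat test in whole brain and not in the hypothalamus-labelled tissue, 42 (1.07%) did the reverse, 21 passed in both and 511 (13%) in neither. The estimate was larger in whole brain for 3400 of the 3917 (86.8%), with a median absolute log2 change of 0.62 there against 0.18 in the hypothalamus-labelled tissue. Estimates pointed in opposite directions for 3302 of them (84.3%) and for 8905 of all tested genes (55.0%); a choice by the size of the difference itself favours opposite directions. In 18 genes both responses passed the test with opposite signs. At least a log2 difference of 1 was found for 1030 genes, 648 positive and 382 negative.

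Taken alone, heat changed 83 genes (0.512%) in the hypothalamus-labelled tissue and 5693 (35.1%) in whole brain in the same fit. In the former 50 rose (0.309%) and 33 fell (0.204%), and in the latter 2999 rose (18.5%) and 2694 fell (16.6%). Before adjustment, 2414 of the 16201 genes had an edgeR p below 0.05 for heat in the hypothalamus-labelled tissue. A gene that did not pass there can therefore still have responded. Heat-exposed and control libraries did not overlap for 16% of all tested genes in the hypothalamus-labelled tissue and for 54.2% in whole brain, which is the background for the statements on overlap given for single genes. Across all 16201 genes the correlation of the responses, which share no library, was 0.00782 as a description. The number of genes that differed was 2807 without the 3 libraries with W-linked reads, 2626 with the reads recovered from FPKM for heat-exposed hypothalamus-labelled library 1, 2340 without whole-brain control library 2 and 2492 without heat-exposed whole-brain library 2. Positive and negative calls were 1416 and 1391 without the W-linked libraries and 1404 and 1222 with the recovered reads. They were 1590 and 1418 with offsets for length and chromosome, and 1515 and 1402 with the replicate block within treatment. These are the background for list counts given below for such fits. Of the 116 genes whose passing difference is given below as a value, 91 passed in each of the 12 edgeR fits that left out 1 library. The other 25 were ADRA2A, AHSA2, BAG1, BAG3, BPIFB4, BTG2, C4orf45, CARTPT, CCT7, COCH, COL1A2, COL3A1, CRY2, CSF1R, GAL, HSPA4L, HSPE1, IGSF1, PDYN, TMEM119, TMEM88B, TRPA1, TRPC1, TRPM7 and XPNPEP2. Genes named as called without a value are not part of this count.

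**Figure D1:**
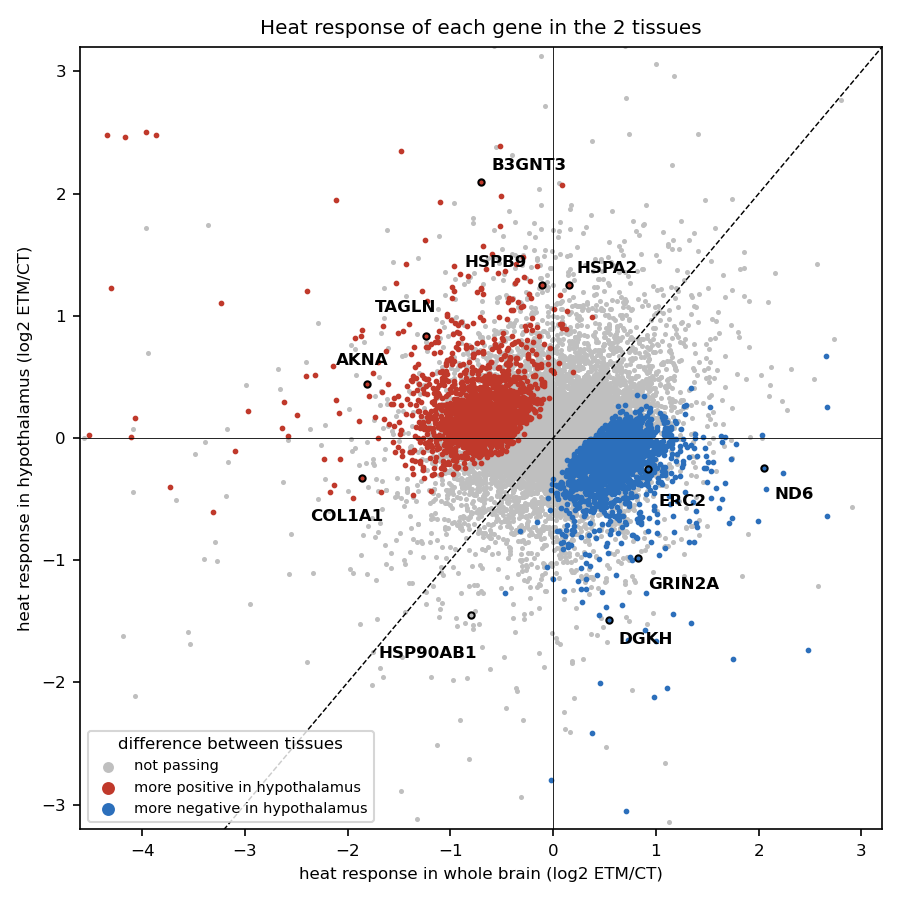
Log2 change with heat in whole brain and in the hypothalamus-labelled tissue for each tested gene, with genes whose difference passed edgeR's test (adjusted p below 0.05) coloured by direction and selected genes named. The coloured genes spread along the whole-brain axis, where the median absolute change of the 3917 genes was 0.62, more than along the hypothalamus axis, where it was 0.18.

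HSPA2, a cytosolic HSP70 family chaperone at chr5:52384531-52387031, had one of the differences carried by the hypothalamus-labelled tissue. Its level there was 119.7, 124 and 123 CPM in the control libraries and 256, 279.8 and 336 CPM after heat. In whole brain it was 157, 164 and 149 CPM in controls and 188, 174 and 159 CPM after heat. Every heat-exposed hypothalamus-labelled library lay above every other library, whereas the whole-brain groups overlapped at their edges. HSPA2 rose by 1.25 on the log2 scale in the hypothalamus-labelled tissue (edgeR adjusted p = 0.000278), its estimate in whole brain was 0.15 (edgeR adjusted p = 0.277), and the difference was 1.10 ± 0.15 (SE; edgeR adjusted p = 0.00142).

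HSPB9, a small heat shock protein gene at chr27:4832280-4835756, behaved alike at a lower level. The hypothalamus-labelled controls had 11.1, 9.85 and 10.5 CPM and the heat-exposed libraries 25.2, 22.5 and 27.1 CPM. Whole-brain libraries had 5.96, 6.16 and 6.72 CPM in controls and 6.22, 4.498 and 6.75 CPM after heat. The first pair of groups was fully separated and the second overlapped. The response was 1.25 in the hypothalamus-labelled tissue, where HSPB9 rose, and -0.11 in whole brain (edgeR adjusted p = 0.637), a difference of 1.36 ± 0.22 (edgeR adjusted p = 0.00253).

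AKNA, whose product organises microtubules at the centrosome of neural progenitors in mouse, had a large positive difference of the other kind, with the change in whole brain. It lies at chr17:3126655-3138776. Whole-brain controls had 40.9, 37.8 and 44.5 CPM and heat-exposed whole brain 12.8, 10.98 and 11.2 CPM, and all control libraries lay above all heat-exposed ones. The hypothalamus-labelled libraries had 18.6, 19.97 and 25.5 CPM in controls and 25.6, 36.3 and 25.3 CPM after heat, with overlap. AKNA fell by 1.81 on the log2 scale in whole brain (edgeR adjusted p = 0.000108), its estimate was 0.44 in the hypothalamus-labelled tissue (edgeR adjusted p = 0.207), and the difference was 2.26 ± 0.23 (edgeR adjusted p = 0.000637).

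ERC2, a scaffold protein of the presynaptic active zone encoded at chr12:8111156-8535466, went the opposite way. Its whole-brain level was 53.3, 46.3 and 54.4 CPM in controls and 98.1, 99.6 and 94.05 CPM after heat. In the hypothalamus-labelled tissue the values were 33.5, 34.7 and 33.8 CPM in controls and 29.3, 28.4 and 27.6 CPM after heat. Neither pair of groups overlapped, upward in whole brain and downward in the hypothalamus-labelled tissue. ERC2 rose by 0.92 in whole brain, the estimate in the hypothalamus-labelled tissue did not pass the test (-0.26, edgeR adjusted p = 0.198), and the difference was -1.18 ± 0.12 (edgeR adjusted p = 0.00064). The differences of HSPA2, HSPB9, AKNA and ERC2 passed in all 33 alternative fits, which include those that left out the W-linked libraries and each library in turn. These genes were chosen with earlier results of these data known, and the fits reuse the same libraries, so this is no independent support.

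**Figure D2:**
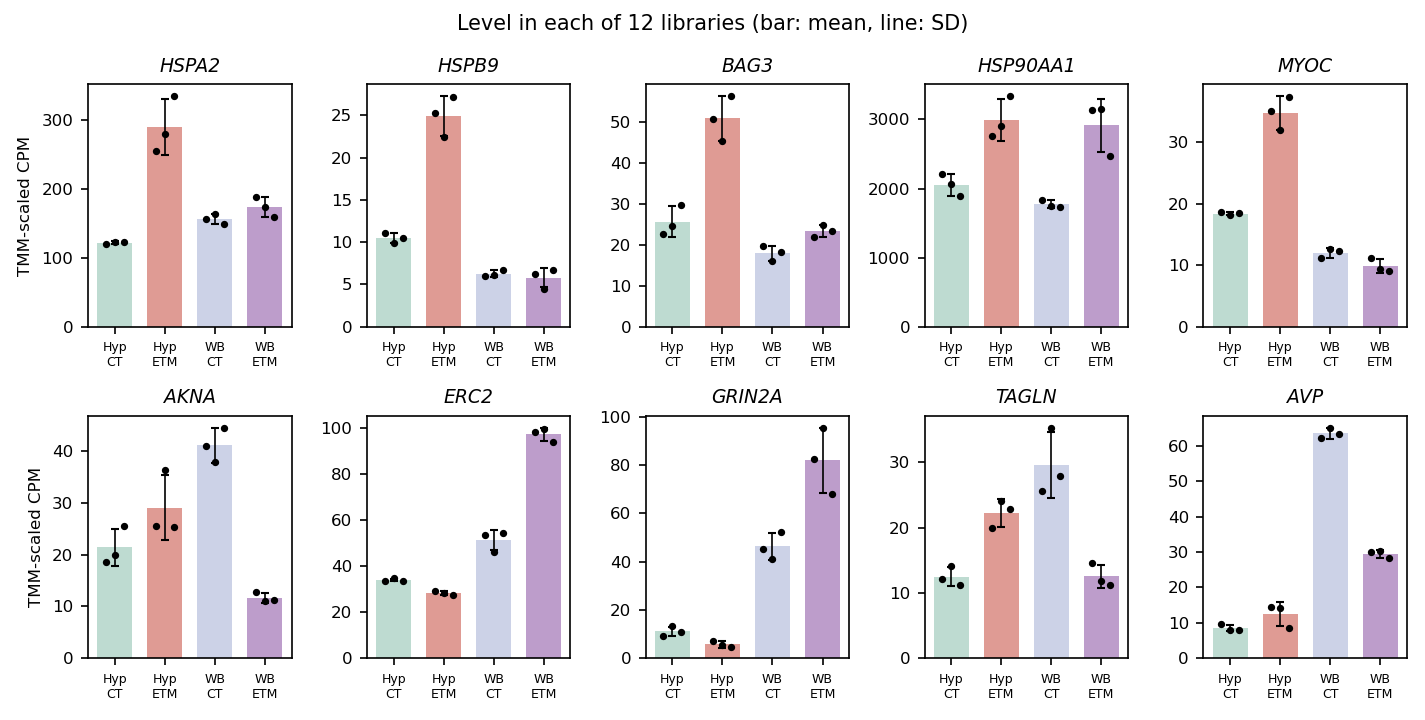
Level in CPM of 10 genes in each of the 12 libraries, with points for libraries, bars for group means and lines for the SD (n = 3). HSPA2, HSPB9 and BAG3 are highest in the heat-exposed hypothalamus-labelled libraries, AKNA and TAGLN are low in heat-exposed whole brain, and ERC2 and GRIN2A are high there.

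Heat shock proteins and co-chaperones divided between both directions. Of 43 tested genes of this list, 8 had a positive and 8 a negative difference, against 11.9% and 12.3% of all genes, and the median difference was -0.12 against -0.03 over all genes. The positive ones were HSPA2, the small heat shock proteins HSPB9, HSPB1 and HSPB8, the HSP70 partner BAG3, the HSP40 proteins DNAJB1 and DNAJB2, and STIP1, which links HSP70 to HSP90. The negative ones were the HSP40 proteins DNAJC12, DNAJB9 and DNAJA2, the HSP70 family members HSPA13 and HSPA4L, the nucleotide exchange factor BAG1, the mitochondrial co-chaperonin HSPE1 and the HSP90 co-chaperone AHSA2. Their counts were 8 and 5 without the W-linked libraries, 8 and 5 with the recovered reads, and 5 and 8 once gene length and chromosome were modelled as offsets.

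BAG3, which works with small heat shock proteins in clearing unfolded proteins, was the 1 chaperone gene of the list that rose in whole brain and had a positive difference. Hypothalamus-labelled levels were 22.6, 24.5 and 29.8 CPM in controls and 50.9, 45.5 and 56.4 CPM after heat. Whole-brain levels were 19.6, 15.99 and 18.28 CPM (controls) and 21.9, 24.9 and 23.5 CPM (heat-exposed). Neither pair of groups overlapped. BAG3 rose by 0.99 in the hypothalamus-labelled tissue and by 0.38 in whole brain, and the difference was 0.61 ± 0.18 (edgeR adjusted p = 0.0288). This call passed in 25 of 33 alternatives: the edgeR adjusted p was 0.0651 and 0.0628 without hypothalamus-labelled control libraries 1 and 2 and 0.0524 without heat-exposed library 3. It was 0.0662 and 0.0559 without whole-brain control libraries 1 and 3, and 0.0744 and 0.0548 without heat-exposed whole-brain libraries 1 and 3.

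Differences of the other small heat shock proteins were 1.60 ± 0.40 for HSPB1 (edgeR adjusted p = 0.0127) and 1.08 ± 0.29 for HSPB8 (edgeR adjusted p = 0.0191), although neither gene passed the heat test in a single tissue. HSPB1 was low, at 3.64, 2.72 and 2.55 CPM in the hypothalamus-labelled controls and 6.92, 4.98 and 10.3 CPM after heat, against 5.64, 7.69 and 7.99 CPM (controls) and 6.77, 4.43 and 6.28 CPM (heat-exposed) in whole brain. HSPB8 was at 22.3, 18.7 and 18.7 CPM (controls) and 42.1, 25.6 and 42.2 CPM (heat-exposed) in the hypothalamus-labelled tissue and at 14.1, 9.21 and 11.6 CPM (controls) and 11.5, 10.4 and 8.33 CPM (heat-exposed) in whole brain. In both genes the groups separated in the hypothalamus-labelled tissue and overlapped in whole brain. For STIP1 (0.78 ± 0.18) and DNAJB2 (0.81 ± 0.17) the larger part came from whole brain, where STIP1 fell by 0.41 and DNAJB2 by 0.59, while DNAJB1 differed by 0.66 ± 0.14 and passed in neither tissue alone. STIP1, on chromosome 39, and DNAJB1, on chromosome 30, had differences of -0.087 and 0.0082 once chromosome and length were modelled (edgeR adjusted p = 0.73 and 0.974).

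DNAJC12, an HSP40 co-chaperone of the enzymes that make serotonin and catecholamines, had the most negative difference of the list. It measured 177, 129.9 and 164 CPM in the hypothalamus-labelled controls and 78.7, 65.8 and 83.2 CPM after heat, with no overlap. Whole-brain values of 87.4, 57.2 and 67.1 CPM in controls and 103, 96.9 and 71.8 CPM after heat overlapped. DNAJC12 fell by 1.05 in the hypothalamus-labelled tissue (edgeR adjusted p = 0.0272), its estimate in whole brain was 0.36, and the difference was -1.41 ± 0.25 (edgeR adjusted p = 0.0032). The serotonin and catecholamine genes of the same libraries are described with the monoamine list.

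The other negative chaperone genes rose in whole brain without a called change in the hypothalamus-labelled tissue. HSPA13, of the endoplasmic reticulum, had 12.1, 12.9 and 11.1 CPM in whole-brain controls and 22.4, 23.5 and 21.4 CPM after heat, against 10.9, 10.9 and 9.99 CPM (controls) and 9.6, 10.8 and 9.503 CPM (heat-exposed) in the hypothalamus-labelled libraries. DNAJB9, a co-chaperone of the same compartment, had 18.6, 11.9 and 16.4 CPM (controls) and 36.2, 33.3 and 30.4 CPM (heat-exposed) in whole brain and 18.27, 18.5 and 14.1 CPM (controls) and 12.9, 19.6 and 19.1 CPM (heat-exposed) in the hypothalamus-labelled tissue. Heat-exposed whole brain was the highest group in both. Their differences were -0.99 ± 0.17 and -1.06 ± 0.27 (edgeR adjusted p = 0.00294 and 0.0136), and that of DNAJA2 was -0.57 ± 0.14. The calls of HSPE1 (-0.58 ± 0.16), BAG1 (-1.11 ± 0.35), AHSA2 (-0.54 ± 0.17) and HSPA4L (-0.54 ± 0.18) passed in 26, 19, 17 and 15 of 33 alternatives, and without whole-brain control library 2 their edgeR adjusted p was 0.0605, 0.098, 0.109 and 0.117.

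For 27 chaperone genes the difference did not pass, among them HSP90AA1, HSPH1, HSPA8, HSP90AB1 and DNAJA4. HSP90AA1, the inducible cytosolic HSP90, was at 2209, 2070 and 1892 CPM in the hypothalamus-labelled controls and 2755, 2900 and 3339 CPM after heat, and at 1839, 1749 and 1732 CPM (controls) and 3132, 3149 and 2474 CPM (heat-exposed) in whole brain. The heat-exposed libraries were higher in both tissues, and the difference of -0.17 ± 0.16 had a 95% interval of -0.52 to 0.17 (edgeR adjusted p = 0.456). HSPH1, an HSP110 exchange factor, had a difference of -0.20 ± 0.17 (edgeR adjusted p = 0.427), and HSPA8, the constitutive HSP70, one of 0.051 ± 0.14. HSP90AB1, the constitutive HSP90, fell in both tissues, by 1.45 and by 0.80, and the difference of -0.66 ± 0.25 missed the threshold (edgeR adjusted p = 0.074). DNAJA4 rose in both, by 0.81 and 0.82, with a difference of -0.010 ± 0.20 and an interval of -0.44 to 0.42. Summed chaperone levels were 8239 to 9312 CPM in hypothalamus-labelled controls and 10100 to 11080 CPM after heat, and 8362 to 8584 and 9670 to 10960 CPM in whole brain.

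**Figure D3:**
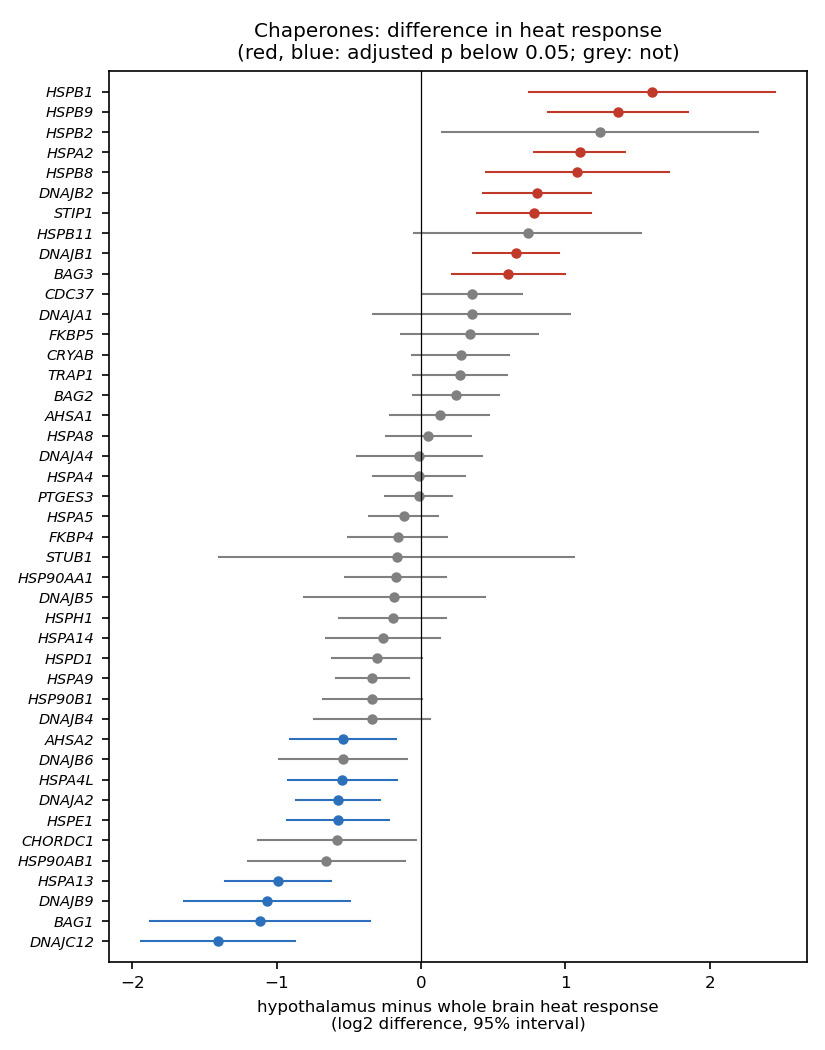
Difference in the heat response between the tissues (log2, hypothalamus-labelled minus whole brain) for 43 heat shock proteins and co-chaperones, with 95% intervals as lines. Of these, 8 of each sign passed the test, and HSP90AA1, HSPA8 and DNAJA4 lie near 0.

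Of 5 tested genes on the heat shock factor list 1 (20%) had a negative difference, against 12.3% of all genes. This was HSBP1, a small protein that binds heat shock factor trimers and is not itself such a factor (-0.63 ± 0.15, edgeR adjusted p = 0.0115). The other tested genes of the list did not pass. HSBP1 rose in whole brain from 113, 97.6 and 104 CPM to 162, 163 and 152 CPM. In the hypothalamus-labelled tissue it had 81.5, 74.8 and 72.1 CPM (controls) and 62.5, 82.8 and 78.2 CPM (heat-exposed). In the list of chaperonins and prefoldins, which fold actin and tubulin, PFDN2 and CCT7 of 13 genes differed positively (15.4%) and PFDN4 negatively (7.69%). Over all genes the shares were 11.9% and 12.3%. PFDN4 was 20.1, 16.2 and 19.2 CPM in whole-brain controls and 41.2, 42.7 and 38.9 CPM after heat and showed overlapping groups in the hypothalamus-labelled tissue, at 15.8, 14.4 and 12.1 CPM (controls) and 11.7, 15.9 and 15.2 CPM (heat-exposed); its difference was -1.13 ± 0.20 (edgeR adjusted p = 0.00334). CCT7 differed by 0.42 ± 0.14 and passed in 18 of 33 alternatives (edgeR adjusted p = 0.0979 without heat-exposed whole-brain library 2). PFDN2 was near 0 in all heat-exposed whole-brain libraries, at 1.403, 0.331 and 0.529 CPM, against 19.1, 27.6 and 52.2 CPM in controls, but also in heat-exposed hypothalamus-labelled library 3 (26.9, 20.8 and 0.3801 CPM in the group). Its fitted difference was 5.21 ± 1.25, and with the recovered reads the edgeR adjusted p was 0.0685. With limma it did not pass either, at an adjusted p of 0.219 and 0.273 with voom without and with sample weights, and 0.263 and 0.315 on log2(FPKM + 1) and log2(FPKM + 0.1), where the difference was 1.83 and 2.18.

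Genes of the presynaptic terminal leaned to negative differences. Of 27 tested, 13 were negative (48.1%) and 2 positive (SV2A and RIMS3, 7.41%), against 12.3% and 11.9% of all genes. The median was -0.53, and 10 of the 27 rose in whole brain, against 18.5% of all genes. In the hypothalamus-labelled tissue 0 passed the heat test, where 0.512% of all genes did. SYT1, the calcium sensor of transmitter release, had 854, 771 and 804 CPM in whole-brain controls and 1217, 1247 and 1027 CPM after heat, and 531, 495 and 459 CPM against 396, 363 and 404 CPM in the hypothalamus-labelled tissue. The groups separated upward in the former and downward in the latter, and the difference was -0.88 ± 0.14 (edgeR adjusted p = 0.0022). SNAP25, a core fusion protein, rose in whole brain and differed by -0.61 ± 0.13 (edgeR adjusted p = 0.00668). The vesicle protein SV2C differed by -1.38 ± 0.34 and its relative SV2A by 0.91 ± 0.24. With offsets for length and chromosome the list counted 7 negative and 1 positive, and SV2A no longer passed (edgeR adjusted p = 0.157).

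Receptors for GABA and glutamate, the main inhibitory and excitatory transmitters, showed 11 negative differences (36.7%) and 1 positive (GRIN2C, 3.33%) among 30. Over all genes the shares were 12.3% and 11.9%. GRIN2A, an NMDA receptor subunit, was at 45.3, 41.2 and 52.3 CPM in whole-brain controls and 82.6, 95.2 and 67.99 CPM after heat. Hypothalamus-labelled controls had 9.39, 13.2 and 11.02 CPM and heat-exposed libraries 7.16, 5.42 and 4.62 CPM. The groups were separated in both tissues in opposite directions. GRIN2A rose by 0.82 in whole brain, fell by 0.98 in the hypothalamus-labelled tissue (edgeR adjusted p = 0.0438), and differed by -1.81 ± 0.25 (edgeR adjusted p = 0.00144). The GABA-A receptor subunit GABRB2 stood at 101, 106 and 95.6 CPM in whole-brain controls and 182, 182 and 155 CPM after heat, against 77.2, 111 and 120.3 CPM (controls) and 91.2, 64.7 and 77.9 CPM (heat-exposed) in the hypothalamus-labelled tissue. The whole-brain groups were apart and the others overlapped; GABRB2 rose in whole brain and differed by -1.19 ± 0.22 (edgeR adjusted p = 0.00388). The list's median was -0.25 and became 0.00 with offsets for length and chromosome, under which 6 were negative and 0 positive.

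Among 22 sodium and calcium channel subunits 6 differences were negative (27.3%) and 4 positive (18.2%). Among 24 potassium and HCN channels 8 were negative (33.3%) and 2 positive (8.33%), against 12.3% and 11.9% of all genes. CACNA2D1, an auxiliary calcium channel subunit, went from 141, 127 and 142 CPM to 333, 363 and 303 CPM in whole brain and was at 100.2, 101 and 93.8 CPM (controls) and 82.3, 98.96 and 104 CPM (heat-exposed) in the hypothalamus-labelled tissue. Only the whole-brain groups were apart, and the difference was -1.33 ± 0.14 (edgeR adjusted p = 0.000722). The sodium channels SCN3A and SCN2A, close together on chromosome 7, rose in whole brain and were lower in all heat-exposed than in all control hypothalamus-labelled libraries, with differences of -1.08 ± 0.13 and -0.98 ± 0.14. KCNQ3, an M-current channel, differed by -0.81 ± 0.18 and the pacemaker channel HCN4 by 0.70 ± 0.18. The potassium channel counts became 2 negative and 2 positive without the W-linked libraries, and 0 negative and 1 positive with the offsets. Over all genes the counts fell as well, to 1391 negative and 1416 positive without these libraries and to 1418 and 1590 with the offsets. PCNT, a scaffold of the centrosome, differed by -0.88 ± 0.17 (edgeR adjusted p = 0.00416), opposite in sign to AKNA. Of the 17 genes of that list, PCNT, ASPM and TUBGCP5 were negative (17.6%) and AKNA positive (5.88%).

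Neuropeptide genes gave 3 positive (13%) and 2 negative (8.7%) differences among 23, near the 11.9% and 12.3% of all genes. AVP, the gene for arginine vasotocin, had 62.2, 65.1 and 63.2 CPM in whole-brain controls and 29.9, 30.4 and 28.2 CPM after heat. Its hypothalamus-labelled level was 9.61, 7.999 and 7.99 CPM in controls and 14.4, 14.3 and 8.49 CPM after heat. All heat-exposed whole-brain libraries were below all controls, whereas in the hypothalamus-labelled tissue heat-exposed libraries 1 and 2 were above the controls and library 3 lay between them. AVP fell by 1.11 in whole brain, and the difference was 1.64 ± 0.23 (edgeR adjusted p = 0.0015). NTS, the neurotensin precursor, rose in whole brain from 46.5, 39.97 and 39.4 to 96.1, 89.8 and 67.7 CPM and had 11.3, 10.6 and 10.9 CPM (controls) and 7.73, 5.48 and 8.17 CPM (heat-exposed) in the hypothalamus-labelled tissue, with a difference of -1.63 ± 0.22 (edgeR adjusted p = 0.00144). The calls of CARTPT (1.495 ± 0.43), GAL (-1.41 ± 0.42) and PDYN (1.70 ± 0.57), precursors of CART peptide, galanin and dynorphin, passed in 22 of 32, 22 of 33 and 16 of 33 alternatives. Their edgeR adjusted p was 0.0596, 0.0578 and 0.094 without heat-exposed whole-brain library 2. CRH, the corticotropin-releasing hormone gene, had a difference of -1.03 ± 0.38 (edgeR adjusted p = 0.0614).

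Of 27 hypothalamic transcription factors, 3 differed positively (11.1%) and 0 negatively, against 11.9% and 12.3% of all genes. The median of the list was 0.60. NKX2-2 had 26.97, 38.9 and 29.8 CPM in whole-brain controls and 20.2, 21.5 and 21.9 CPM after heat, and 78.7, 84.8 and 80.4 against 96.97, 98.8 and 94.96 CPM in the hypothalamus-labelled tissue; the groups were apart in both tissues, downward and upward, and the difference was 0.84 ± 0.17 (edgeR adjusted p = 0.005). FOXB1, a gene of the mammillary region in mouse, fell in whole brain and differed by 1.73 ± 0.41 (edgeR adjusted p = 0.0103). NKX2-4 was at 0 in all hypothalamus-labelled controls and at most 2.12 CPM anywhere, so no fold is given. Genes of serotonin and catecholamine neurons differed in 2 of 24 cases, ADRA2A (0.50 ± 0.16) and MAOB (-0.73 ± 0.18), or 4.17% in each direction. The edgeR adjusted p of ADRA2A was 0.091 without heat-exposed whole-brain library 2. TPH2, which makes serotonin, was at 232, 138 and 178 CPM in hypothalamus-labelled controls and 81.1, 4.29 and 26.6 CPM after heat, lower in every heat-exposed library but spread widely among them, and the difference of -2.01 ± 0.95 did not pass (edgeR adjusted p = 0.137). The serotonin transporter SLC6A4 likewise had 419, 286 and 434 CPM (controls) and 171, 6.97 and 52.96 CPM (heat-exposed) (difference -1.41 ± 1.03, edgeR adjusted p = 0.342). Without heat-exposed hypothalamus-labelled library 1 the monoamine list had 9 negative and 1 positive call, against 1638 and 1727 of all 16569 genes tested then. Its summed level was 1754 to 2066 CPM in hypothalamus-labelled controls and 738 to 1555 CPM after heat, and the part of these values in the DNAJC12 result was not tested.

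Markers of oligodendrocytes, the myelin-forming cells, showed positive differences in 8 of 15 genes (53.3%) and negative ones in 0, with a median of 0.81. Over all genes the shares were 11.9% and 12.3%. OLIG2, a transcription factor of the lineage, had 184, 208 and 183 CPM in whole-brain controls and 104, 98.6 and 92.1 CPM after heat, and 324, 388 and 338 CPM (controls) and 492, 421 and 365 CPM (heat-exposed) in the hypothalamus-labelled tissue. All heat-exposed whole-brain libraries were below their controls and the hypothalamus-labelled groups overlapped, with a difference of 1.25 ± 0.16 (edgeR adjusted p = 0.00139). SOX10 and the myelin tight junction gene CLDN11 fell in whole brain too and differed by 1.02 ± 0.24 and 1.41 ± 0.34. TMEM88B rose in the hypothalamus-labelled tissue instead, from 28.3, 38.8 and 47.3 to 70.9, 74.9 and 72.8 CPM, and its difference of 0.87 ± 0.27 passed in 23 of 33 alternatives (edgeR adjusted p = 0.0737 without whole-brain control library 3). Summed myelin marker levels varied between single libraries, from 12280 to 23930 CPM in hypothalamus-labelled controls and 19830 to 31500 CPM after heat. In whole brain they were 4185 to 6422 CPM in controls and 4036 to 5310 CPM after heat. The sums of control and heat-exposed libraries overlapped in both tissues.

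Astrocyte markers differed positively in 3 of 12 genes (GFAP, MYOC and GLUL) and negatively in 1, the glutamate transporter SLC1A3 (-0.81 ± 0.18). These shares were 25% and 8.33%, against 11.9% and 12.3% of all genes. MYOC, the myocilin gene, was carried by the hypothalamus-labelled tissue, at 18.6, 18.1 and 18.5 CPM in controls and 34.98, 31.9 and 37.3 CPM after heat. Whole brain had 11.1, 12.6 and 12.3 CPM (controls) and 11.2, 9.46 and 9.06 CPM (heat-exposed). The hypothalamus-labelled groups were well apart and the others overlapped, and the difference was 1.19 ± 0.17 (edgeR adjusted p = 0.00144). GFAP, the astrocyte intermediate filament, fell in whole brain from 547, 614 and 437 to 211, 163 and 195 CPM and had 729, 894 and 808 CPM (controls) and 1246, 625 and 622 CPM (heat-exposed) in the hypothalamus-labelled tissue, where heat-exposed library 1 was highest (difference 1.52 ± 0.33). Genes of motile cilia and ependyma were positive in 5 of 22 cases (22.7%), DNAI2, DNAH9, HYDIN, FOXJ1 and CFAP45, with a median of 0.66. Without heat-exposed hypothalamus-labelled library 1 they were positive in 9, against 1727 of all 16569 genes tested then. DNAI2, an axonemal dynein chain, rose from 16.6, 20.1 and 18.1 to 24.3, 37.2 and 34.3 CPM in the hypothalamus-labelled tissue and fell from 11.3, 11.2 and 10.8 to 8.97, 8.27 and 6.55 CPM in whole brain, with a difference of 1.29 ± 0.24 (edgeR adjusted p = 0.00367). The dynein heavy chain DNAH9 and the central-pair gene HYDIN differed by 1.23 ± 0.28 and 1.30 ± 0.33.

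Collagen and matrix genes had 9 positive (40.9%) and 2 negative (9.09%) differences among 22, against 11.9% and 12.3% of all genes, with a median of 0.41. They had 5 positive and 1 negative both without the W-linked libraries and with the replicate block within treatment. COL1A1, the main fibrillar collagen chain, had 635, 703 and 613 CPM in whole-brain controls and 189.5, 147 and 199.7 CPM after heat. Hypothalamus-labelled libraries had 539.5, 355 and 396 CPM in controls and 279.9, 388 and 361 CPM after heat. The former groups were far apart and the latter overlapped; the difference was 1.54 ± 0.23 (edgeR adjusted p = 0.00192). COL1A2 and COL3A1 differed by 1.11 ± 0.32 and 1.28 ± 0.37, each passing in 27 of 33 alternatives, with an edgeR adjusted p of 0.0628 and 0.0659 without heat-exposed whole-brain library 2. The lone cartilage-type chain called, COL9A1, was at most 2.05 CPM in every library and differed by -2.66 ± 0.56, and COL4A1 was the other negative. TAGLN, a smooth muscle and mural cell gene, had 12.2, 14.2 and 11.2 CPM in hypothalamus-labelled controls, 19.9, 24.1 and 22.9 CPM after heat, 25.6, 35.3 and 27.9 CPM in whole-brain controls and 14.6, 11.9 and 11.2 CPM after heat. Both pairs of groups were apart in opposite directions, both changes passed, and the difference was 2.07 ± 0.22 (edgeR adjusted p = 0.00064).

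With TAGLN, the meningeal regulator FOXC2 (1.43 ± 0.33) and the pericyte receptor PDGFRB (0.80 ± 0.19) made up the 3 of 14 mural and meningeal markers that differed (21.4%). Of 16 endothelial markers TIE1 (0.95 ± 0.21) and CLDN5 were positive (12.5%) and VWF (-0.60 ± 0.14) and EMCN negative (12.5%). These shares are near the 11.9% and 12.3% of all genes. The red cell anion exchanger SLC4A1 differed by 1.07 ± 0.28, the 1 called of 8 in its list (12.5%, near the share of all genes). CSF1R, the microglial growth factor receptor, differed by 0.83 ± 0.27 and passed in 19 of 33 alternatives. With TMEM119 (1.31 ± 0.41) it made 2 of 11 microglial markers (18.2%, against 11.9% of all genes). Without the W-linked libraries 0 of these markers passed, against 1416 positive genes of all 16317 tested then. The edgeR adjusted p of CSF1R was 0.0894 without hypothalamus-labelled control library 1, and that of TMEM119 was 0.0554 to 0.072 in the 8 fits without 1 library in which it did not pass. Summed collagen and matrix levels were 3591 to 3698 CPM in whole-brain controls and 2046 to 2354 CPM after heat, and red blood cell markers 616 to 870.4 and 268 to 566 CPM. In the hypothalamus-labelled libraries the matrix sums overlapped, at 3415 to 4823 and 3722 to 4299 CPM. Red blood cell markers there summed to 428.5 to 688 CPM in controls and 298 to 431 CPM after heat. The median heat response of the red blood cell list was -0.64 in the hypothalamus-labelled tissue and -0.75 in whole brain. The part of the amount of meninges, vessels and blood in the differences between the tissues was not tested.

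RNA-processing genes leaned negative, with 7 negative (35%) and 3 positive differences (SRSF2, CLK2 and HNRNPA1, 15%) among 20, against 12.3% and 11.9% of all genes. In whole brain 11 of the 20 rose, against 18.5% of all genes, and 0 were called in the hypothalamus-labelled tissue, against 0.512%. SRSF4, a splicing factor, was at 96.3, 93.1 and 83.3 CPM in whole-brain controls and 151, 139.8 and 134 CPM after heat and at 79.3, 74.3 and 77.1 CPM (controls) and 71.3, 80.5 and 79.6 CPM (heat-exposed) in the hypothalamus-labelled tissue. The difference was -0.63 ± 0.13 (edgeR adjusted p = 0.00506). HNRNPA2B1, CLK4, a kinase of splicing factors, and RBM25 had -0.60 ± 0.12, -0.80 ± 0.17 and -0.91 ± 0.21. SRSF2 had 0.54 ± 0.12, which fell to 0.096 with the offsets (edgeR adjusted p = 0.574). RBM3, the cold-inducible RNA-binding protein, did not pass (0.087 ± 0.16, 95% interval -0.26 to 0.43, edgeR adjusted p = 0.724).

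ND6, the respiratory complex I subunit encoded on the light strand of the mitochondrial genome (MT:14962-15483), had 144, 128 and 122 CPM in whole-brain controls and 626, 374 and 639.5 CPM after heat. The hypothalamus-labelled libraries had 112, 123 and 118 CPM (controls) and 113, 91.1 and 93.5 CPM (heat-exposed). Heat-exposed whole brain was higher than all other libraries, and the difference was -2.30 ± 0.24 (edgeR adjusted p = 0.00064). ND6 was the 1 called of 13 tested genes of the mitochondrial list (7.69%). Among all 28 tested genes of the mitochondrial chromosome 2 differences were negative (7.14%) and 0 positive. The lowest of the 28 was -2.405, so ND6 was not the extreme. Nuclear-encoded respiratory subunits had 6 negative (15.4%) and 2 positive (5.13%) differences among 39, against 12.3% and 11.9% of all genes. They were led by UQCRB (-0.93 ± 0.18) and NDUFA5 (-0.83 ± 0.15), both of which rose in whole brain.

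Chromatin and DNA methylation genes had 7 positive (26.9%) and 2 negative differences (TET1 and SUZ12, 7.69%) among 26, against 11.9% and 12.3% of all genes. DNMT1, the maintenance DNA methyltransferase, fell in whole brain from 129, 149 and 123 to 83.4, 73.2 and 90.5 CPM and was at 111, 106 and 119 CPM (controls) and 146, 111 and 117 CPM (heat-exposed) in the hypothalamus-labelled tissue (difference 0.86 ± 0.17, edgeR adjusted p = 0.00498). KDM5B, a histone H3 lysine demethylase, differed by 0.81 ± 0.14 and KMT2D, a methyltransferase of the same residue, by 0.97 ± 0.23. In sterol and fatty acid synthesis 4 of 23 were negative (17.4%) and 2 positive (8.7%). MSMO1, of cholesterol synthesis, differed by -1.001 ± 0.18 (edgeR adjusted p = 0.0037). In fatty acid oxidation HADHB differed by 0.65 ± 0.11 (edgeR adjusted p = 0.00243). It was 1 of 4 positive (23.5%), beside 1 negative (5.88%), among 17.

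The thyroid list gave 3 positive differences of 12 (25%, against 11.9% of all genes), among them the hormone-binding protein CRYM (0.61 ± 0.15) and the receptor THRA. DIO2, which activates thyroid hormone, had a difference of -0.54 ± 0.35 (edgeR adjusted p = 0.275). Of 16 circadian genes 5 were negative (31.2%) and 2 positive (12.5%), against 12.3% and 11.9% of all genes. RORB (-1.43 ± 0.36) led the negative ones, with PER2 (-0.87 ± 0.22), RORA, CLOCK and TEF, and CRY2 (0.35 ± 0.12) and BHLHE41 were positive. Without the W-linked libraries the circadian counts were 1 negative and 0 positive, against 1391 and 1416 of all 16317 genes tested then. All 4 called TRP channels of 13 were negative (30.8%, against 12.3% of all genes). These were TRPM7 (-0.59 ± 0.16), TRPC1 (-0.67 ± 0.19), TRPC4 and TRPA1 (-1.21 ± 0.37), the last a heat sensor in chicken. Of this list 1 was called without the W-linked libraries or with the offsets. Without whole-brain control library 3 the edgeR adjusted p was 0.0531 for TRPM7 and 0.0787 for TRPA1, and without whole-brain control library 2 it was 0.0783 for TRPC1 and 0.107 for CRY2. Immediate early genes had 4 positive differences of 17 (JUN, JUND, BTG2 and IER5, or 23.5% against 11.9% of all genes). Without the W-linked libraries they had 0, against 1416 of all 16317 genes tested then. BTG2 differed by 0.53 ± 0.15, with an edgeR adjusted p of 0.0546 to 0.0596 in the 5 fits without 1 library in which it did not pass.

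**Figure D4:**
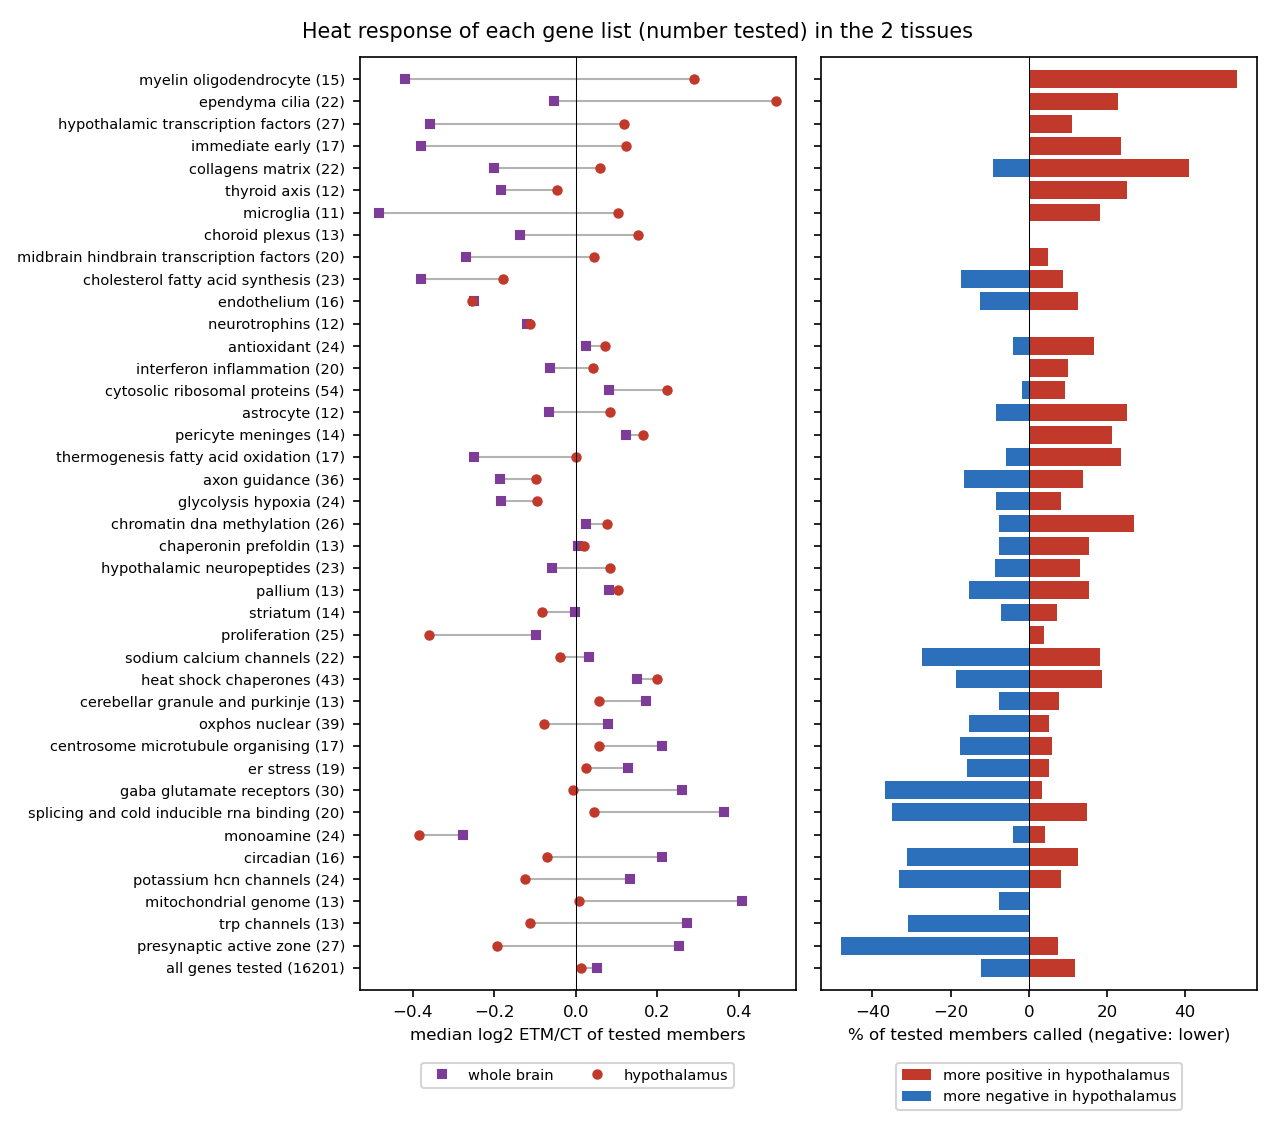
Percentage of tested members with a positive and with a negative difference in the heat response (edgeR adjusted p below 0.05) for each gene list with at least 10 tested members, beside the percentages over all genes (11.9 and 12.3). Myelin and matrix genes lie on the positive side, and presynaptic genes and GABA and glutamate receptors on the negative side.

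Among genes with a mean of at least 1 CPM, the most positive differences lay at the ribosomal RNA repeat of chromosome 16. ENSGALG00010002366 (chr16:1622270-1634221) had 46.8, 25.9 and 78.1 CPM in whole-brain controls and 2.81, 2.51 and 2.05 CPM after heat, and 6.48, 4.41 and 5.99 CPM (controls) and 21.9, 44.4 and 26.9 CPM (heat-exposed) in the hypothalamus-labelled tissue. The groups were apart in both tissues in opposite directions, and the difference was 6.82 ± 0.54 (edgeR adjusted p = 8.16e-05). ENSGALG00010002378, which overlaps it, differed by 6.34 ± 0.50, and the 5_8S_rRNA row of the same stretch by 6.47 ± 0.93. This symbol has 18 rows in the table and the repeat has near-identical copies, so reads could have been split between them.

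Of the genes outside the repeat, GALNT6 (4.33 ± 0.69), a glycosyltransferase, CCDC69 (4.12 ± 0.63) and MFRP (3.60 ± 0.50), a retinal membrane protein, fell in whole brain. CCDC69 had 5.45, 8.06 and 8.05 CPM in whole-brain controls and 0.366, 0.198 and 0.661 CPM after heat, and at most 1.03 CPM in the hypothalamus-labelled libraries. RAB25, an epithelial trafficking GTPase, and B3GNT3, a glycosyltransferase, rose in the hypothalamus-labelled tissue. B3GNT3 had 1.16, 1.31 and 1.31 CPM in controls and 5.86, 4.98 and 5.45 CPM after heat, against 0.843, 1.47 and 0.841 CPM (controls) and 0.6101, 0.8599 and 0.463 CPM (heat-exposed) in whole brain; the difference was 2.80 ± 0.44 (edgeR adjusted p = 0.00215), and that of RAB25 2.90 ± 0.56. At the negative end MMRN1 (-4.21 ± 0.69), LCT (-3.11 ± 0.64) and IGF1 (-2.17 ± 0.54), an insulin-like growth factor, were at most 3.37 CPM in every library. SLC17A8, the vesicular glutamate transporter also found in serotonin neurons, had 12.9, 6.204 and 11.7 CPM (controls) and 2.93, 0.373 and 2.53 CPM (heat-exposed) in the hypothalamus-labelled tissue and 1.62, 1.47 and 1.54 CPM (controls) and 2.38, 1.65 and 1.98 CPM (heat-exposed) in whole brain, a difference of -2.79 ± 0.71 (edgeR adjusted p = 0.0139). Its heat test passed in neither tissue (edgeR adjusted p = 0.0504 and 0.594). With the recovered reads the edgeR adjusted p of the difference was 0.099. With limma on log2(FPKM + 1) and log2(FPKM + 0.1) the adjusted p was 0.051 and 0.0742. DGKH, a diacylglycerol kinase, fell from 2.33, 3.21 and 5.098 to 1.63, 0.996 and 1.204 CPM in the hypothalamus-labelled tissue and differed by -2.03 ± 0.35 (edgeR adjusted p = 0.00281).

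The other genes among the 12 most positive and 12 most negative with a symbol were low, at most 6.15 CPM in every library except for COCH. On the positive side DCST2 (3.19 ± 0.87), BIN2 (2.72 ± 0.45), a membrane-bending protein of blood cells, XPNPEP2 (2.60 ± 0.88), an aminopeptidase, and EMILIN3 (2.33 ± 0.45), a matrix glycoprotein, fell in whole brain. BPIFB4 (2.48 ± 0.82) passed the heat test in neither tissue. On the negative side IGSF1 (-2.52 ± 0.73), C4orf45 (-2.19 ± 0.67), KERA (-2.22 ± 0.54), a proteoglycan of the cornea, and NPY4R (-1.99 ± 0.45), a receptor for pancreatic polypeptide, rose in whole brain. COCH, which encodes the matrix protein cochlin, had 3.35, 5.77 and 3.44 CPM in hypothalamus-labelled controls and 3.09, 0.622 and 1.33 CPM after heat, and 17.1, 14.8 and 15.7 CPM (controls) and 17.9, 21.03 and 29.1 CPM (heat-exposed) in whole brain. Its groups did not overlap in either tissue, neither heat test passed, and the difference was -1.89 ± 0.53 (edgeR adjusted p = 0.0215). Without 1 library the edgeR adjusted p rose to as much as 0.105 for BPIFB4 (without whole-brain control 3) and 0.101 for XPNPEP2 (without heat-exposed whole-brain library 3). It reached 0.0799 for C4orf45 (without whole-brain control 2), 0.0604 for IGSF1 (without heat-exposed whole-brain library 2) and 0.0645 for COCH (without hypothalamus-labelled control 2). BPIFB4 passed in 16, XPNPEP2 in 20, and IGSF1 and C4orf45 each in 25 of 33 alternatives.

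Of the 83 genes that changed with heat in the hypothalamus-labelled tissue, 63 also differed between the tissues and 20 did not pass. Over all tested genes 24.2% differed. The change in the hypothalamus-labelled tissue is part of the difference and comes from the same libraries, so a choice by it favours passing. PAQR8, a membrane progesterone receptor, rose from 266, 276 and 271 to 422, 393 and 401 CPM and had 214, 209 and 232 CPM (controls) and 199, 196 and 207 CPM (heat-exposed) in whole brain (difference 0.70 ± 0.11, edgeR adjusted p = 0.00192). CHGB, a secretory granule protein, fell from 512, 380.4 and 460.5 to 287, 167 and 212 CPM against 220.3, 191 and 212 CPM (controls) and 249, 239 and 291 CPM (heat-exposed) (difference -1.34 ± 0.24, edgeR adjusted p = 0.00334). Groups of both genes were apart in the hypothalamus-labelled tissue. The nucleoside enzyme UPP1 and the microRNA-processing enzyme DICER1 also fell there and differed by -0.99 ± 0.20 and -1.08 ± 0.21. SERPING1, the complement C1 inhibitor, was among the 10 genes that rose in the hypothalamus-labelled tissue and fell in whole brain (1.45 ± 0.19), and MYO16 (-0.98 ± 0.13), an unconventional myosin of neurons, and CCDC88A (-1.27 ± 0.16), an actin-binding signalling protein, among the 8 that did the reverse.

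Heat changed 33 genes in both tissues, 15 of them with the same sign, and the difference was called for 3 of these 15. The 33 are part of the 83 genes of the hypothalamus-labelled tissue, and 35.1% of all tested genes passed in whole brain. Whether the overlap exceeds that share was not tested, and the genes given next are single examples. The metallothionein gene MT4 rose in both, from 79.2, 31.1 and 110.5 to 310, 197 and 249 CPM and from 44.03, 54.5 and 62.3 to 131, 106 and 144 CPM, with a difference of 0.53 ± 0.46 (95% interval -0.46 to 1.53, edgeR adjusted p = 0.422). The RNA helicase gene DDX3X rose in both with a difference of 0.17 ± 0.17 (interval -0.20 to 0.53). RRM1, the large ribonucleotide reductase subunit, fell on the log2 scale by 0.63 and 0.55 (difference -0.073 ± 0.14, interval -0.37 to 0.22), and LDHA, lactate dehydrogenase A, fell by 0.59 and 0.61 (difference 0.015 ± 0.17, interval -0.35 to 0.38). The count of 83 fell to 3 without the W-linked libraries. Leaving out 1 library gave 22, 30 and 19 genes without hypothalamus-labelled controls 1, 2 and 3, 532, 15 and 23 without heat-exposed libraries 1, 2 and 3, and 29 to 50 without a whole-brain library.

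The direction of the difference moved with the chromosome and the length of the gene. On chromosomes 1 to 10, 7.28% of 9454 tested genes were positive and 16.6% negative. On the small chromosomes 11 to 28 the shares were 18.8% and 6.76% of 5206, and on the smallest, 29 to 39, they were 41.7% and 1.65% of 424. The median difference was -0.18, 0.24 and 0.70 in these classes, and the shift was in whole brain, with median responses of 0.18, -0.18 and -0.51 there against -0.01, 0.04 and 0.14 in the hypothalamus-labelled tissue. Among protein-coding genes the fifth with the shortest span (78 to 5891 bp) was positive in 22.9% and negative in 2.45%, and the fifth with the longest (51957 to 1163755 bp) in 4.54% and 23.6%. ERC2, SYT1, GRIN2A and CACNA2D1 fall in the longest class, and STIP1, DNAJB1, DNMT1 and KMT2D on the smallest chromosomes. With offsets for gene length (not span) and for single chromosomes (not these classes) 3008 genes differed, 1590 positively and 1418 negatively. Of the 3917, 2323 were among them. The part of base composition in this pattern was not tested.

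**Figure D5:**
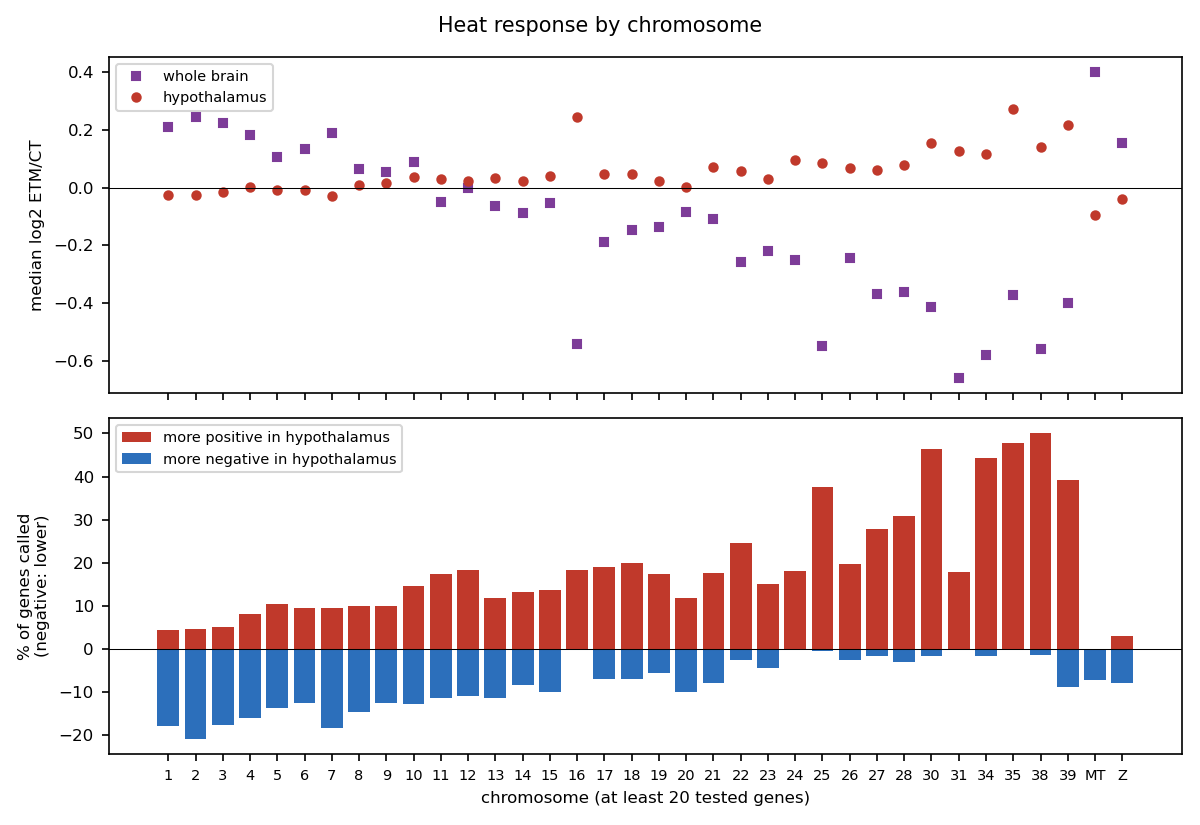
Percentage of tested genes with a positive and with a negative difference in the heat response on each chromosome with at least 20 tested genes (W left out). The positive share rises from the large to the small chromosomes, from 7.28% over chromosomes 1 to 10 to 41.7% over chromosomes 29 to 39.

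Of the genes given by value, 33 overlap another gene with at least 100 reads over all libraries, and no source used here gives the strand setting of the counting, so their reads could not be assigned with certainty. These are DNAJC12 with SIRT1, BAG3 with TIAL1, DNAJB1 with TECR, DNAJB2 with PTPRN, HSPE1 with HSPD1, TAGLN with PCSK7, NTS with RASSF9, COL9A1 with COL19A1, B3GNT3 with JAK3, MFRP with RNF26, LCT with UBXN4, CRYM with UQCRC2, DNMT1 with EIF3G, DNAH9 with ELAC2, CSF1R with HMGXB3, PAQR8 with MCM3, DNAJA4 with PSMA4 and WDR61, and LDHA with UEVLD. Also among them are CCT7, HSPA4L, DNAJA2, PFDN2, PDYN, RORB, SERPING1, CCDC88A, TMEM119, DCST2, XPNPEP2, C4orf45 and the rows of the ribosomal RNA repeat. HSPB9 overlaps a pseudogene counted at 15 reads. HSPA2, AKNA and ERC2 overlap no other gene of the table.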

How the data were processed

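RNA-seq libraries of hypothalamus-labelled tissue and whole brain from control and heat-exposed chicken embryos were analysed, 3 in each of 4 groups. The authors deposited raw counts per gene, made with featureCounts of Subread 2.0.6 on build GRCg7b, per the submitters' processing notes. The authors also deposited FPKM values, which for heat-exposed hypothalamus-labelled library 1 did not come from the deposited counts. The FPKM columns of the heat-exposed groups are named HT, not ETM, and were matched by tissue and number. In the other libraries the reads recovered from FPKM equalled the counts. For heat-exposed hypothalamus-labelled library 1 they did not, so its match rests on the column name. Aligner, strand setting and treatment of multiply mapped reads: not given in the sources used here. Coordinates are those of the deposited table. Of the counts, 0.513% fell in rows without a gene name (634 rows), which stayed in the fit as genes with an ID.

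Counts were tested in R 4.3.3 with edgeR 4.0.16: TMM scaling, filterByExpr by group, estimateDisp, glmQLFit and glmQLFTest on 4 groups, with Benjamini-Hochberg adjustment over 16201 genes and a threshold of 0.05. CPM values are counts scaled to the TMM library size. Standard errors and 95% intervals were derived from the F statistic and are approximate. The procedure was tested on simulated data. Alternatives used DESeq2 1.42.0, limma 3.58.1 (voom, or log2 FPKM with a pseudocount of 1 or 0.1), other scalings and filters, replicate blocks, each library left out, the 3 libraries over 0.05% W-linked counts left out, and reads recovered from FPKM. Offsets for gene length and chromosome were added after the data were seen. They took, per library, a smooth trend over gene length and then the median of each chromosome. Chromosomes with fewer than 20 expressed genes were pooled.

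Genes were named by a rule: the 12 most positive and 12 most negative differences among called genes with a symbol and at least 1 CPM, up to 2 members of each of 43 gene lists with the lowest p, and a set of heat, stress and matrix genes, of which the text leaves out some list members and set genes and the 2 most negative genes without a symbol. The comparison, the 4 marker genes and the lists were chosen with earlier results of these data known. List members and genes changed in the hypothalamus-labelled tissue that are named beyond the rule, and the order of the lists in the text, were chosen after their values were seen. Of 965 listed symbols, 866 were in the table.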

Additional observations from a re-analysis of the deposited data

Results flagged for a closer look

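A test of the difference itself, the edgeR contrast between both heat responses, singled out 3917 genes, of which those given above by value follow with their log2 difference. Among chaperones these were HSPB1 at 1.60, HSPB9 at 1.36, HSPA2 at 1.10, HSPB8 at 1.08, DNAJB2 at 0.81, STIP1 at 0.78, DNAJB1 at 0.66 and BAG3 at 0.61. On the negative side stood DNAJC12 at -1.41, BAG1 at -1.11, DNAJB9 at -1.06, HSPA13 at -0.99, HSPE1 at -0.58, DNAJA2 at -0.57, HSPA4L at -0.54 and AHSA2 at -0.54. HSBP1 had -0.63, PFDN4 -1.13, PFDN2 5.21 and CCT7 0.42.

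Of the synaptic, channel and receptor genes, GRIN2A had -1.81, SV2C -1.38, CACNA2D1 -1.33, GABRB2 -1.19, ERC2 -1.18, SCN3A -1.08, SCN2A -0.98, SYT1 -0.88, KCNQ3 -0.81 and SNAP25 -0.61, with SV2A at 0.91 and HCN4 at 0.70. Centrosomal AKNA had 2.26 and PCNT -0.88. Peptide, regulator and monoamine genes had AVP 1.64, PDYN 1.70, CARTPT 1.495, NTS -1.63, GAL -1.41, CHGB -1.34, FOXB1 1.73, NKX2-2 0.84, MAOB -0.73 and ADRA2A 0.50.

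Glial and ciliary genes had CLDN11 1.41, OLIG2 1.25, SOX10 1.02, TMEM88B 0.87, GFAP 1.52, MYOC 1.19, SLC1A3 -0.81, HYDIN 1.30, DNAI2 1.29 and DNAH9 1.23. Matrix, vessel and blood cell genes had TAGLN 2.07, COL1A1 1.54, FOXC2 1.43, COL3A1 1.28, COL1A2 1.11, SLC4A1 1.07, TIE1 0.95, CSF1R 0.83, TMEM119 1.31, PDGFRB 0.80, VWF -0.60 and COL9A1 -2.66.

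RNA-processing, mitochondrial and chromatin genes had RBM25 -0.91, CLK4 -0.80, SRSF4 -0.63, HNRNPA2B1 -0.60, SRSF2 0.54, ND6 -2.30, UQCRB -0.93, NDUFA5 -0.83, KMT2D 0.97, DNMT1 0.86 and KDM5B 0.81. Metabolic, thyroid, circadian and TRP genes had MSMO1 -1.001, HADHB 0.65, CRYM 0.61, RORB -1.43, PER2 -0.87, CRY2 0.35, TRPA1 -1.21, TRPC1 -0.67 and TRPM7 -0.59. The immediate early gene BTG2 had 0.53.

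At the extremes lay ENSGALG00010002366 at 6.82, 5_8S_rRNA at 6.47, ENSGALG00010002378 at 6.34, GALNT6 at 4.33, CCDC69 at 4.12, MFRP at 3.60, RAB25 at 2.90 and B3GNT3 at 2.80. Opposite them were MMRN1 at -4.21, LCT at -3.11, SLC17A8 at -2.79, IGF1 at -2.17 and DGKH at -2.03. Low genes near both ends were DCST2 at 3.19, BIN2 at 2.72, XPNPEP2 at 2.60, BPIFB4 at 2.48 and EMILIN3 at 2.33, and IGSF1 at -2.52, KERA at -2.22, C4orf45 at -2.19, NPY4R at -1.99 and COCH at -1.89. Of the genes that changed in the hypothalamus-labelled tissue, SERPING1 had 1.45, PAQR8 0.70, CCDC88A -1.27, DICER1 -1.08, UPP1 -0.99 and MYO16 -0.98.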

How the results depend on the processing

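The count of genes whose heat response differed was 3917 and ranged from 2277 to 4503 over 33 alternative fits, all with edgeR's or another tool's adjusted p below 0.05. It was 2408 and 2277 with limma on log2(FPKM + 1) and log2(FPKM + 0.1), and 1030 with a log2 difference of at least 1 required as well. Leaving out 1 library gave 2340 (without whole-brain control 2) to 4195. The 83 genes of the hypothalamus-labelled tissue became 210 without a count filter, 548 with DESeq2, 133 and 476 with limma voom without and with sample weights, and 202 with Z- and W-linked genes left out. They became 189 and 127 with limma on FPKM, 3 without the W-linked libraries, 130 with offsets for length and chromosome, 368 at an adjusted p below 0.1, 27 with a log2 change of at least 1, and 15 to 532 without 1 library. The 5693 genes of whole brain became 3089 and 2949 with FPKM, 3250 with the recovered reads, 713 with a log2 change of at least 1, and 3662 to 6398 without 1 library. STIP1 reversed to -0.087 with the offsets, under which it no longer passed. The cause of these shifts was not tested. The naming rule selected, or the text gives by value, 172 genes, not all of them named in the text. Over these, 5172 alternatives counted as unchanged, 453 lost the call, 41 gained one and 1 reversed a called difference. For a gene not called in the main fit, a change of sign was counted as unchanged. Leaving out 1 library ended the call of 7 to 20 of the 116 genes given by a passing value, most often without whole-brain control 2.

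Replicate numbers showed no consistent pairing: deviations of same-numbered libraries from their group means correlated from -0.355 to 0.21, over 0.1 in 2 of 18 pairs. With 3 libraries in a group such correlations cannot exclude a pairing. With the replicate number as a block, 2974 genes differed (block shared by all groups) or 2917 (block within treatment), and the shared block left 21 genes in the hypothalamus-labelled tissue and 5112 in whole brain.

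Depth of 13309467 to 18317019 reads leaves few reads for genes near 1 CPM.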
